A study of Drosophila melanogaster with 2 samples.

Results

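The Hedgehog pathway and the genes that hold the segment boundary of the fly embryo were examined for binding of Dmrt99B, a DNA-binding protein with a DM domain, the zinc module of Doublesex. The 10 genes were taken from a fixed list: the ligand gene hh, the receptor gene ptc, the transducer gene smo, the effector gene ci, its regulators rdx and Su(fu), the homeobox genes en and inv, and the Pax genes gsb and gsb-n. They were 10 of 13945 protein-coding genes on the 6 chromosome arms. A summit, the base at which the authors placed the centre of a peak, was given to a gene when it lay in the gene body or when the nearest protein-coding transcription start site (TSS) was that gene's. The ground covered by this rule is called the locus.

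The data were ChIP-seq peaks, that is, stretches of DNA enriched after immunoprecipitation of a tagged protein. The samples were whole Drosophila melanogaster embryos of both sexes, 6 to 16 hours old by the source label (the age entry holds a value that cannot be read as an embryo's age), of a transgenic line that makes dmrt99B fused to eGFP at its C-terminal end. They formed 1 group of 2 biological replicates, numbered 3 and 4, with an anti-GFP antibody used for the precipitation, while the antibody entry of the labels names dmrt99B. Control libraries were not analysed here. In whole embryos, binding in few cells and weak binding in many cells cannot be told apart. One list, of 7838 peaks, had been thresholded by how reproducible peak ranks were between replicates (irreproducible discovery rate, IDR). Longer relaxed lists, of 30000 peaks each, were given for either replicate and for both pooled. No source used here states the number of reads, so depth is unknown. Strength is given as the authors' signal value, a score of unstated scale that was compared only within a list.

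In Hedgehog signalling the secreted protein Hh binds Patched, which otherwise holds the membrane protein Smoothened inactive. Active Smoothened lets the zinc-finger factor Cubitus interruptus (Ci) reach the nucleus as an activator. In each segment of the embryo, cells of the posterior compartment express en, inv and hh, and their anterior neighbours answer with ptc. Both gsb genes encode paired-domain factors, gsb acting in the segmental epidermis and gsb-n mainly in the nervous system.

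The windows reaching 100 bp to either side of the strongest IDR summit of hh, ci and rdx are shown first, as examples of the stretches on which the values below rest. No window of ptc, en or inv is printed. They are followed by the windows of 2 further rdx summits that hold the 7-mer CAGTGTA, which were chosen after their motif counts were seen. All are from the plus strand of the release 6 (dm6) reference sequence of RefSeq, with the summit in the middle. Capitals mark exact matches, on either strand, to the motifs searched, which are spelled out with their counts further on.
hh, chr3R:23134813-23135013: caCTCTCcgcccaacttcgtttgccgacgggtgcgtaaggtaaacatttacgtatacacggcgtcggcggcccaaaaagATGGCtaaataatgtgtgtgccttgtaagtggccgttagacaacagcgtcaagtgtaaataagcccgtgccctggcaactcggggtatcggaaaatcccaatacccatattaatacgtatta
ci, chr4:56258-56458: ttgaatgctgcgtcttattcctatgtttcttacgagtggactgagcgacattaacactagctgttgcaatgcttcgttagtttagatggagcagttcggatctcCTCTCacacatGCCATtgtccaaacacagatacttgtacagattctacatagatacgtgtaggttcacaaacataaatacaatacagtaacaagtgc
rdx, chr3R:14012653-14012853: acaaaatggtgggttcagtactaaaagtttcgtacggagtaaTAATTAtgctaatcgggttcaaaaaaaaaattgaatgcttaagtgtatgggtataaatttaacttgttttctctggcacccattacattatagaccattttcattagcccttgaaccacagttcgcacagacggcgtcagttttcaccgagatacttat
rdx, chr3R:13999644-13999844: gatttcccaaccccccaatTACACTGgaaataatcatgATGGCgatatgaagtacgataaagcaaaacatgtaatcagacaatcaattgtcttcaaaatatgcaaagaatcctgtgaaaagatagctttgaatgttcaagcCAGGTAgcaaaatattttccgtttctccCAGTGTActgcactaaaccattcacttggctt
rdx, chr3R:14005267-14005467: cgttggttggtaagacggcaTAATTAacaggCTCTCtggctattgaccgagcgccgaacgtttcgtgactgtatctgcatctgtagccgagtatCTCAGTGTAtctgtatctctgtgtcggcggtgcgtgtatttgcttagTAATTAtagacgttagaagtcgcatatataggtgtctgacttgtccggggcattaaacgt

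Of the 10 genes, 6 had at least 1 IDR summit in the locus, against 27.8% of all protein-coding genes. Genes were also set beside genes of like locus length, in 5 groups of 2789, since the share with an IDR summit rose with length. In the group with the longest loci, of at least 15.22 kb and called long loci from here on, were 7 of the 10 genes. Of these 7, the 5 genes rdx, ptc, inv, hh and en had an IDR summit, against 63.6% of all genes in that group. The gene ci, in the group next in length, had one as well, against 34.5% there. No IDR summit was found for smo, where 19.0% of genes with loci of like length had one, or for Su(fu), the shortest locus at 1.73 kb, where 9.32% did. Summits within 1000 bp of a TSS were present for 3 genes, ptc, ci and rdx, against 20.1% of all genes. At like length the shares were closer. Of the 7 genes with long loci 2 had such a summit, against 29.6% of that group, and in the group of ci 22.1% did. Most of the summits belonged to rdx and ptc.

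In total 34 IDR summits fell in 257 kb of merged loci, or 0.132 per kb, which was 2.26 times the density of 0.0585 per kb over all arms. The gene rdx held 18 of them (52.9%) and ptc held 8. Without rdx, 16 summits in 192 kb gave 0.0835 per kb, 1.43 times that density. The density ran from 0.328 per kb at ptc and 0.276 at rdx to 0.139 at ci, 0.0868 at inv, 0.0460 at hh and 0.0186 at en. Among genes with long loci, 1.33% had a higher density than ptc and 2.80% a higher density than rdx. For hh that share was 46.7% and for en 61.4%, and the median over genes with long loci was 0.0413 per kb.

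**Figure D1:**
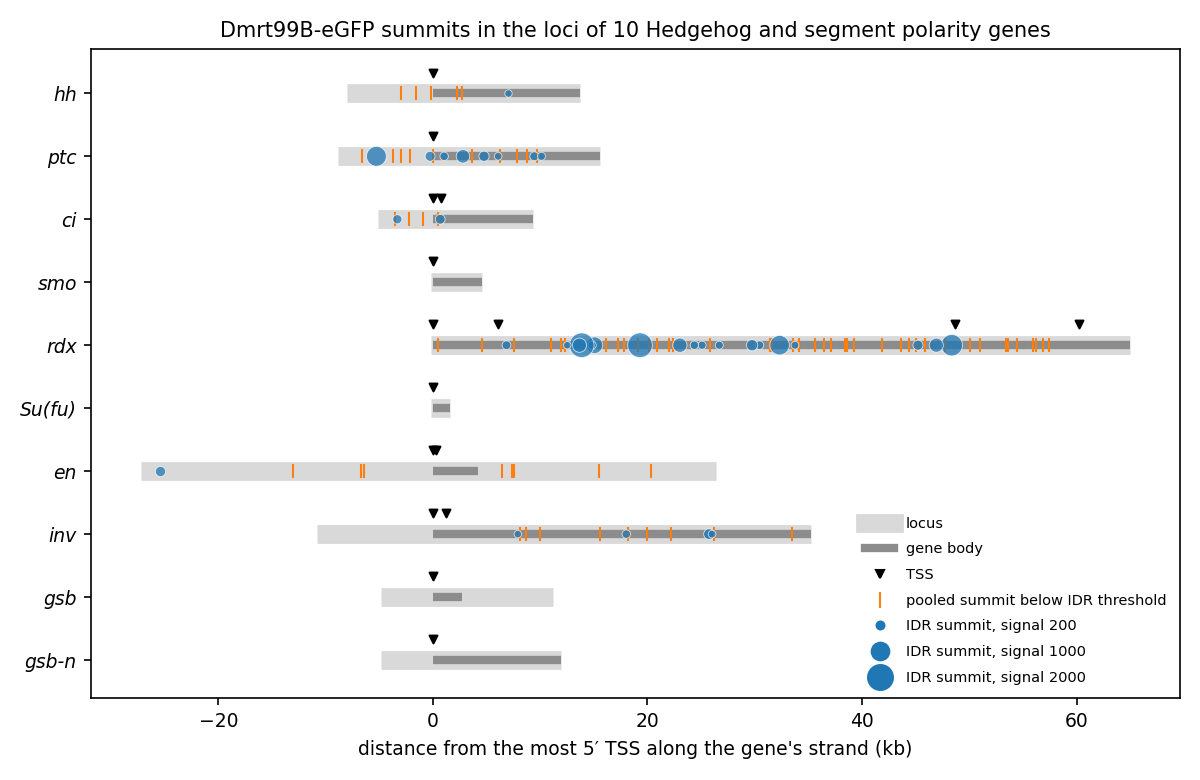
Loci of the 10 genes, each drawn along its own strand from its most 5′ TSS (x axis, kb). Blue points are IDR summits with area in proportion to signal value, orange ticks are summits of the pooled list below the IDR threshold, and the rows of smo, Su(fu), gsb and gsb-n are empty.

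**Figure D2:**
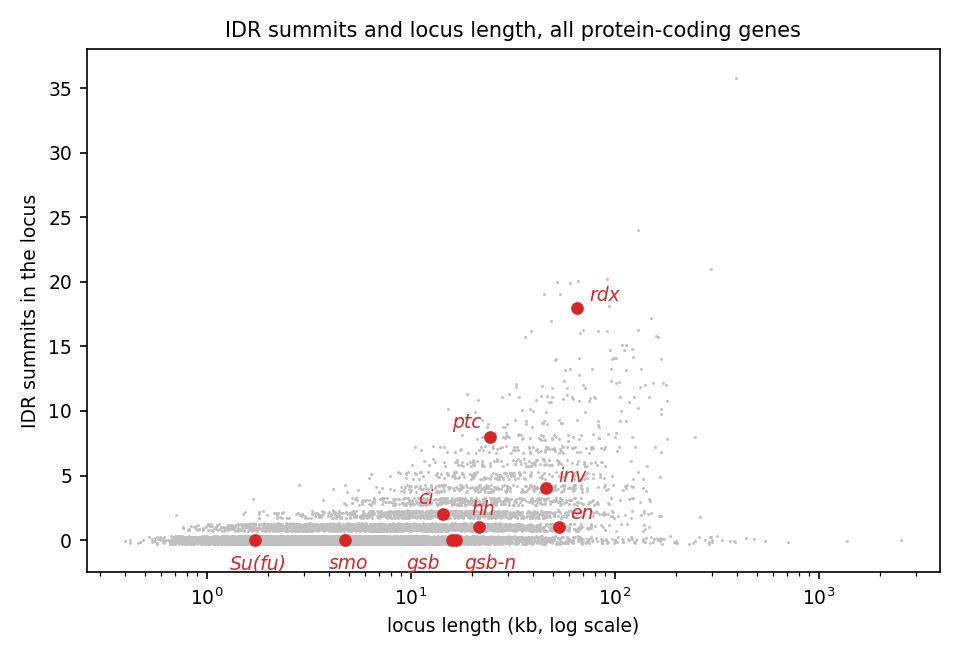
IDR summits per gene (y axis, grey points spread by up to 0.3 for visibility) against locus length in kb (x axis, log scale) for 13945 protein-coding genes, with the 10 genes in red. The genes rdx and ptc, with 18 and 8 summits, lie among the highest counts at their locus lengths, and en, inv and hh lie within the bulk.

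The ligand gene hh (FBgn0004644, 3R from 23128169 to 23141906, minus strand) had a single IDR summit, which was weak. It lay at 23134913 in the first intron, 6993 bp downstream of the hh TSS, and had a signal value of 176, rank 7575 of the 7838 in the list. That summit was marginally closer to the TSS of CG31457, at 6932 bp. Replicate 3 had a summit 2 bp away with rank 7364 of 30000, and replicate 4 had one 1 bp away with rank 10028. In replicate 4 it was thus outside the 7838 strongest peaks. The relaxed pooled list added 5 weaker summits at hh. One of these lay 162 bp upstream of the TSS with a signal value of 45.2 and rank 25929, and a counterpart was found in replicate 4 but not within 200 bp in replicate 3.

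The receptor gene ptc (FBgn0003892, 2R from 8649649 to 8665223, plus strand), itself a target of the pathway in which its product acts as the inhibitory receptor, carried 8 IDR summits. The strongest lay 5264 bp upstream of the TSS in intergenic sequence, at 8644385, with a signal value of 1269 and rank 717. It ranked 792 in replicate 3, with a signal of 850, and 569 in replicate 4, with a signal of 429. A promoter summit followed at 8649389, 260 bp upstream of the TSS, with a signal value of 314. The other 6 summits lay in the first intron, from 1047 to 10118 bp downstream of the TSS, and the strongest of these had a signal value of 585 at 8652450. The last 2, at 9451 and 10118 bp, were closer to a TSS of Acsl than to that of ptc and counted through the gene body. Of all protein-coding genes, 1.20% had 8 or more IDR summits, and of those with long loci 5.99%. In the relaxed pooled list ptc had 18 summits, among them a second in the promoter 35 bp from the TSS with a signal value of 136.

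The transducer gene smo (FBgn0003444, 2L from 277582 to 282167), which encodes the membrane protein that Patched holds inactive, had no summit in any of the 4 lists. The nearest IDR summit lay 8281 bp from its TSS, at CG3625, with a signal value of 269. That distance was longer than the median of 7351 bp over all protein-coding genes, and 46.6% of genes were as far or farther from an IDR summit. Most genes with loci of like length also had none.

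The effector gene ci (FBgn0004859, 4 from 47710 to 57041, minus strand) had 2 IDR summits of middling strength. The stronger lay 27 bp upstream of the more downstream of its 2 TSSs, at 56358, with a signal value of 306 and rank 4376. Replicate 3 placed it at rank 5332 with a signal of 186 and replicate 4 at rank 3631 with a signal of 110. The other, at 60356, lay 3315 bp upstream of the more upstream TSS in an exon of asRNA:CR43957, with a signal value of 273. Chromosome 4 is small and carried 16 IDR peaks in all, so the ci locus held 2 of 16. In the pooled list it held 6 of 53.

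The regulators of Ci lay at opposite ends of the range, in loci of 1.73 kb for Su(fu) and 65.15 kb for rdx. Su(fu) (FBgn0005355, 3R from 12689873 to 12691468), which encodes a protein that binds Ci in the cytoplasm, had no summit in any list. Most genes with loci of like length had none either: 9.32% had an IDR summit, and 84.0% had no pooled summit. The IDR summit nearest to Su(fu) lay 26858 bp away, at Men, and 13.0% of genes were as far or farther. By contrast rdx (FBgn0264493, 3R from 13967061 to 14032057, minus strand), which encodes the adaptor that brings Ci to a Cullin 3 ubiquitin ligase, had 18 IDR summits, and 9 protein-coding genes had more. Those with most were kirre (36), CG1677 (24), Ten-a (21), ush, CG43245, shn and sbb (20 each). Of genes with long loci, 0.394% had 18 or more, but their median locus is 26.84 kb and counts rise with length. By density, 2.80% of them were higher than rdx.

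The rdx summits were classed as intronic with 1 exception, classed as promoter. The exception lay 333 bp upstream of an internal TSS, at 13983696, with a signal value of 1480 and rank 565. It ranked 583 in replicate 3 and 517 in replicate 4. The other 17 were classed as intronic. All 18 lay in the second intron of at least 1 transcript, since the promoter class was given before the intron class. The strongest were those at 14012753, with a signal value of 1954 and rank 321, and at 14018185, with 1946 and rank 322. Replicate 3 ranked these 324 and 326, with signals of 1386 and 1378, and replicate 4 ranked them 341 and 307, with signals of 557 and 582. These 2 summits were thus close in strength in either replicate, with their order turned between them. A summit at 13999744 followed with a signal value of 1224. Of the 18, 9 (50%) were among the 3919 strongest IDR peaks, which make up 50% of that list. Among the 783 strongest, which make up 10% of it, were 4 (22.2%). The signal values of the 18 ran from 178 to 1954 with a median of 370 (341 over all IDR peaks). In the pooled list rdx had 58 summits, 54 of them in introns, and either replicate's list had 59.

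Spacing within rdx was uneven. Neighbouring summits were 216 to 11461 bp apart, with a median of 1441 bp, and 5 of the 17 gaps were under 1000 bp. A run of 5 summits stood between 14016997 and 14019534, including 2 in the same peak, from 14017995 to 14018509. The longest gap ran from 13986850 to 13998311. The most 3′ TSS of rdx, at 13971800, was 11896 bp from its closest IDR summit. At the most 5′ TSS, at 14032057, an IDR summit with a signal value of 459 lay 220 bp upstream at 14032277. It was given to CG3061, whose TSS was 94 bp away, and is not among the 18. Over all 10 genes the median gap was 1660 bp over 28 gaps, against 2634 bp over 4700 gaps in all protein-coding loci. Gaps under 1000 bp were 7 of these 28, and 21.7% over all protein-coding loci.

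The homeobox genes en (FBgn0000577, 2R from 11524006 to 11528210, minus strand) and inv (FBgn0001269, 2R from 11474465 to 11509695, plus strand) are neighbours that encode related repressors and share regulatory sequence. None of their IDR summits was at a promoter, and 29.6% of genes with long loci had one within 1000 bp of a TSS. That of en lay in intergenic sequence 25424 bp upstream of the TSS, at 11553634, with a signal value of 336 and rank 3981. It ranked 4036 in replicate 3 and 4394 in replicate 4, with signals of 242 and 91.8. The inv gene had 4, a number reached by 21.2% of genes with long loci, of which 27.5% had a higher density. All 4 inv summits lay in its introns, from 6672 to 24775 bp downstream of a TSS. The strongest, at 11500201, had a signal value of 372, rank 3566 in replicate 3 and rank 4061 in replicate 4. The others had signal values of 178 to 232. In the pooled list en had 9 summits and inv 13, of which a summit in the 3′ UTR of inv counted for both. The closest pooled summit to an en TSS lay 6145 bp away. In replicate 4 alone a summit lay 164 bp upstream of an en TSS, with a signal of 15.6 and rank 26479 of 30000, and the nearest pooled summit was 6298 bp from it.

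The Pax genes gsb (FBgn0001148, 2R from 25061964 to 25064643) and gsb-n (FBgn0001147, 2R from 25040383 to 25052331) had no summit in any of the 4 lists, in loci of 16.01 and 16.77 kb. In the pooled list 42.3% of all genes had a summit, and 15.9% of genes with long loci had none. Both loci are near the lower limit of that group, 15.22 kb, while its median is 26.84 kb. In the group next in length 45.6% of genes had no pooled summit. The 2 loci adjoin, so they form 1 empty stretch and are not separate observations. The IDR summit nearest to either gene was the same, at Nplp1, 29965 bp from the gsb TSS and 20332 bp from that of gsb-n. The nearest pooled summits lay 21323 and 20132 bp away, and 7.23% and 8.04% of genes were as far from one or farther. These genes stood apart from ptc, rdx and ci in the same lists, and the cause was not tested.

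Other genes of the pathway were counted in the same way. Of 18 further Hedgehog pathway genes, 8 had an IDR summit in the locus (44.4%, against 27.8% of all genes) and 7 had one within 1000 bp of a TSS (38.9%, against 20.1%). Of the genes with one within 1000 bp of a TSS, all but sotv had long loci. Of the genes of this list with long loci, all but boi had one there, against 29.6% of all genes with long loci. The 7 of these 18 with long loci all had one in the locus, against 63.6% of genes with long loci, and 1 of the other 11 did. The strongest lay at gish, which encodes a casein kinase (4262), sgg, the GSK3 kinase (2413), and dlp, a glypican (1309). Among genes for heparan sulphate proteoglycans, dlp had 9 summits and dally 6. Among genes for enzymes that make their chains, ttv had 8, sotv 1 and botv none. No IDR summit was found at 10 genes, among them the ligand exporter gene disp, the co-receptor gene ihog and the kinase and kinesin genes fu and cos. Of 10 further segment polarity genes, 6 had one and 1, nkd, had one within 1000 bp of a TSS. Long loci accounted for 6 of the 10 genes, and 5 of these 6 had one. The strongest lay at slp2, a forkhead factor (2467), nkd, an inhibitor of Wingless signalling (1304), and wg itself (1100), and none was at arm, dsh, pan or lin. Median locus lengths were 11.1 kb in the Hedgehog list and 23.4 kb in the segment polarity list, against 19.2 kb in the 10 genes and 5.25 kb over all.

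Introns held most of the 34 summits. There were 28 in introns (82.4%, 95% Wilson interval 66.5% to 91.7%), against 47.4% of all IDR peaks. Promoters were here taken as 500 bp to either side of a TSS of any protein-coding or non-coding RNA gene. The counts of genes with a summit within 1000 bp of a TSS, given above, used only each protein-coding gene's own TSSs. Promoters held 3 (8.82%, interval 3.05% to 22.96%), against 29.1% of all. With 1000 bp to either side they held 6 (17.6%, interval 8.35% to 33.5%), against 40.5% of all. Intergenic sequence held 2, against 20.6%, and 1 lay in the antisense RNA upstream of ci. No summit lay in a coding exon or UTR, and 0 of 34 allows a share of up to 8.82% by the limit of 3 counts (Wilson upper bound 10.15%). The shares moved with rdx, without which 11 of 16 summits were in introns (68.8%) and 2 in promoters (12.5%). The intervals cover counting error over summits only, and summits of a locus are not independent. Length of intron was not taken into account.

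**Figure D3:**
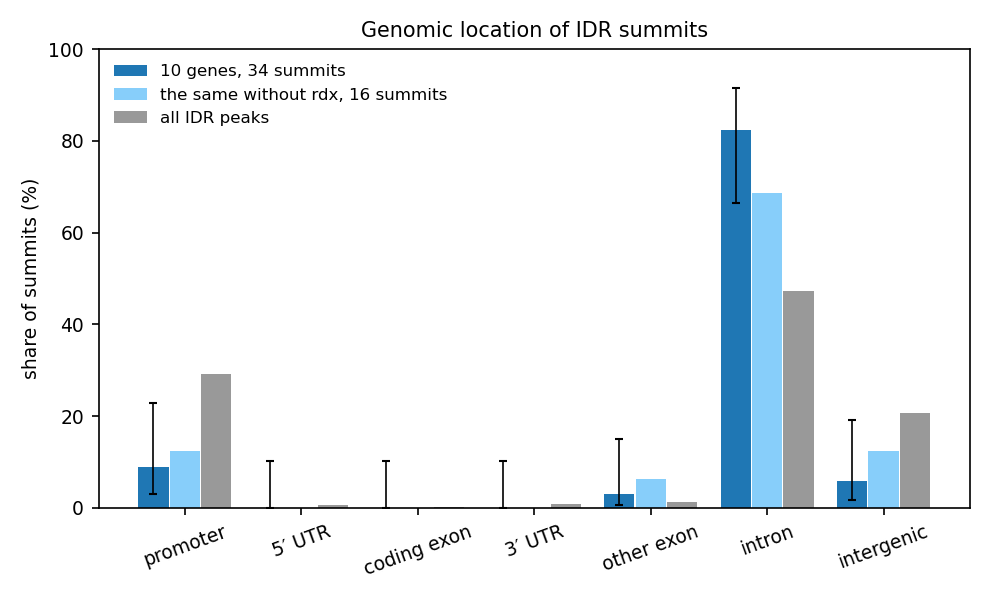
Share of IDR summits (y axis, %) in each class of genomic location (x axis) for the 10 genes (blue, with 95% Wilson intervals), for the same without rdx (light blue) and for all IDR peaks (grey). Introns hold 82.4% of the 34 summits, 68.8% without rdx and 47.4% of all.

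The IDR list held the 7838 pooled peaks of highest signal. Each of the 34 had a summit within 200 bp in the relaxed list of either replicate, at most 86 bp away in replicate 3 and 187 bp in replicate 4. In replicate 3, 33 of them were among the 7838 strongest peaks, and in replicate 4, 30 were. The IDR list derives from these replicate lists and the pooled list, so recovery was built in and is not particular to these loci. The same shares over all IDR peaks are not given here. Signals of the 34 summits in the 2 replicate lists correlated with a Spearman rho of 0.859. These summits share libraries and were selected for strength. The median signal value of the 34 was 290, against 341 over all IDR peaks. Of the 34, 12 (35.3%) were among the 3919 strongest IDR peaks, which make up 50% of that list. Among the 783 strongest, which make up 10% of it, were 5 (14.7%), of which 4 were at rdx and 1 at ptc.

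**Figure D4:**
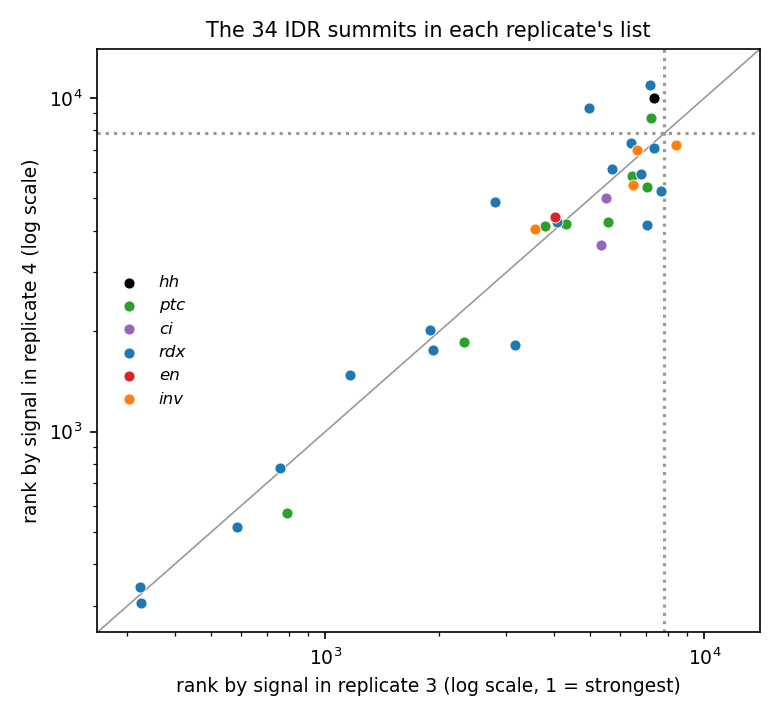
Rank by signal of the 34 IDR summits in replicate 3 (x axis, log scale) and replicate 4 (y axis, log scale), coloured by gene, with the diagonal in grey and the 7838th rank dotted. The strongest rdx and ptc summits lie near the diagonal, while hh, 1 ptc and 2 rdx summits rank below 7838 in replicate 4 and 1 inv summit does so in replicate 3.

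In windows reaching 100 bp to either side of the 34 summits, exact matches to 9 motifs were counted on both strands. The DM core ACAATGT, the site taken for DM-domain proteins, was in none of them, against 3.99% of such windows at all IDR peaks, and 0 of 34 allows up to 8.82% by the same limit of 3 counts (Wilson upper bound 10.15%). In the pooled list it was in 1 of 109 windows (0.917%, Wilson interval 0.162% to 5.01%), against 3.39% of 30000. The 7-mer CAGTGTA was in 2 (5.88%, interval 1.63% to 19.1%), against 8.42%, and CACTGAG in 1, against 6.71%. Both summits with CAGTGTA were at rdx, as printed above. That at 13999744 held it 72 and 78 bp from the summit on opposite strands, and that at 14005367 held it within 1 bp of the summit, overlapping the reverse complement of CACTGAG.

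At this window the share over all IDR peaks lay inside the interval of the 34 for GAGA, Pho, the homeodomain core and Zelda. With 200 bp to either side it lay outside for Pho, which was then in 23 of 34 windows (67.6%, interval 50.8% to 80.9%), against 49.0% of all. At that width windows of close neighbours overlap, so some matches were counted more than once. The intervals take windows as independent, which those of a locus are not, and Pho was 1 of 9 motifs searched. No conclusion is drawn from it. With 100 bp to either side, GAGA (GAGAG) was in 10 windows (29.4%, interval 16.8% to 46.2%), against 20.6% of all. The Pho core (GCCAT), a Polycomb recruiter's site, was in 11 (32.4%, interval 19.1% to 49.2%), against 23.8%. The homeodomain core TAATTA was in 5 (14.7%, interval 6.45% to 30.1%), against 18.98%, and the Zelda core CAGGTA in 3 (8.82%, interval 3.05% to 22.96%), against 3.57%. DRE (TATCGATA) was in none, against 1.33%. The Ci site TGGGTGGTC was in none, and in 1 of 7838 windows of all. In windows of 200 bp to either side it was in 12 of 7838, of which 1 was at the strongest ptc summit, centred 138 bp from it. In the 109 pooled windows, with 100 bp to either side, Pho was in 34 (31.2%), against 31.1% of 30000. Zelda was in 4 of these 109 (3.67%), against 3.79%. GAGA was in 29 (26.6%), against 22.5%, and TAATTA in 15 (13.8%), against 14.6%. Mean GC content was 36.0% in the 34 IDR windows with 100 bp to either side and 33.95% in all such IDR windows. A match is a description of the letters and not a site shown to be bound.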

How the data were processed

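Peaks were measured in 2 replicates of whole embryos carrying dmrt99B-eGFP. Per the labels, coordinates are dm6. The file descriptions deposited by the authors state that relaxed lists derive from the alignments and a further file not used here, and the IDR list derives from the 3 relaxed lists. The aligner and peak caller were not given in the sources used here. The deposited signal value is a score by the authors' caller. The deposited −log10 q values were not used. All 7838 IDR peaks were the 7838 pooled peaks of highest signal.

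Summits (start plus offset, written 1-based) were placed on the release 6 reference, which no peak overran, and on protein-coding and non-coding RNA genes of Ensembl release 115. Of the pooled summits, 24990 lay at the centre of their peak. A summit took the first location it met: promoter, UTR or coding exon, exon of a non-coding RNA, intron, intergenic. Tables were built with pandas 2.3.3 on Python 3.11.15, intervals with scipy 1.17.1, windows with numpy 2.4.6, and plots with matplotlib 3.10.9. Nearest-TSS and locus routines were checked on simulated positions.

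There was 1 group, so no comparison between groups and no p-value was made, and counts stand beside those over all genes or peaks. Genes, lists and motifs were chosen with earlier results of these data known. Named were the 10 genes and up to 3 genes of each other list with the highest signal. Also named were genes without a summit where 5 or fewer, and up to 5 genes with more summits than rdx. The genes boi, ttv, sotv, dally, botv, shn and sbb were chosen after their values were seen. So were the 4 genes without a summit named from the Hedgehog list, and the CAGTGTA windows. Alternatives were a stricter peak set, each replicate alone, either condition of the assignment rule alone, the pooled list, and other distances and windows.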

Additional observations from a re-analysis of the deposited data

How the results depend on the processing

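With the 3919 IDR peaks of highest signal, 3 of the 10 genes (rdx, ptc and inv) had a summit in place of 6, 1 (rdx) in place of 3 had one within 1000 bp of a TSS, and 12 summits (0.0467 per kb) fell in the loci, 9 of them at rdx. Their median signal was then 769 and their median gap 3715 bp. This set holds fewer peaks by construction. With the pooled list, 109 summits (0.424 per kb) fell in the loci and 58 at rdx, with the same count of 6 genes. That density was 1.89 times the 0.224 per kb of the pooled list over all arms, against 2.26 times with the IDR list. With the IDR list the density was 0.183 per kb in gene bodies alone and 0.135 per kb by nearest TSS alone. Leaving out a replicate, with the 7838 strongest peaks of the other, gave 5 to 6 genes with a summit (hh had none without replicate 3), 3 with one near a TSS, 33 to 34 summits, 0.129 to 0.132 per kb, a promoter share of 8.82% to 12.1% (17.6% with 1000 bp to either side of a TSS, both replicates kept), 17 to 19 summits at rdx, and a median gap of 1537 to 1664 bp. The median signal was not recomputed without a replicate, since the lists differ in scale. In windows of 50 bp to either side CAGTGTA was in 1, TAATTA in 3, GAGA in 4, Pho in 5 and Zelda in 1 window. In windows of 200 bp DM core was in 1, CACTGAG in 2, TAATTA in 9, the Ci site in 1 and Pho in 23, against 7.37%, 11.3%, 28.1%, 0.153% and 49.0% of all IDR windows of that size. Wider windows hold more sequence by construction. By the limits set for each value, 24 alternative values moved and 44 did not. These limits differed in width. A promoter share of 17.6% in place of 8.82% was counted as not moved, and a density of 0.129 in place of 0.132 per kb as moved. The tally is therefore not a measure of stability. The alternatives for rdx and for the other gene lists were chosen after seeing the data. No paired analysis was possible because there was 1 group. Unknown read depth limits what an empty locus can show.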
